A study of Homo sapiens with 6 samples.

Results

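The shape of the mitochondrial network is set by fission and fusion, and damaged or surplus mitochondria are removed by mitophagy. The probe sets of 10 genes of these processes were examined: FIS1, DNM1L, MFF and MIEF1 for fission, MFN1, MFN2 and OPA1 for fusion, and BNIP3, BNIP3L and PINK1 for mitophagy. Members were taken through the platform annotation of the HG-U133 Plus 2.0 array, which names 19775 genes in all and gives these 10 a total of 28 of the array's 54675 probe sets. Each probe set is given apart. Of the 28, 25 were bright enough to be tested and 3 were not. RNA came from Hep3B, a human hepatocellular carcinoma line, in 2 stably transfected clones kept under G418 and grown nearly to confluence: clone D20, which carries a plasmid with siRNA against SDHB, and the pU6 control, clone 2, written pU6-2 below. SDHB is the iron-sulfur subunit of succinate dehydrogenase, which oxidises succinate in the tricarboxylic acid cycle. Each clone was hybridised to 3 arrays, A, B and C, and the SDHB signal was not analysed here, so that the silencing in D20 was not checked in these data. Each condition is 1 clone, so silencing and clone cannot be told apart. Whether the 3 arrays of a clone stand for separate cultures is not said by any label, and p-values therefore measure only the spread between arrays, which may be technical.

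In textbook terms, DNM1L (DRP1) is a cytosolic dynamin-like GTPase that constricts mitochondria after adaptors in the outer membrane recruit it. MFF and MIEF1 (MiD51) are such adaptors, and FIS1 is an outer membrane protein first known as the yeast adaptor. The mitofusins MFN1 and MFN2 are GTPases that tether and fuse outer membranes, and OPA1 does the same for inner membranes and keeps cristae in shape. BNIP3 and BNIP3L (NIX) are outer membrane receptors that bind the autophagosome directly and are known targets of hypoxia-inducible factor. PINK1 is the kinase that accumulates on depolarised mitochondria and activates the ubiquitin ligase parkin.

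The clearest differences between the clones were lower FIS1 and MIEF1 transcripts and higher MFN1 transcripts in D20. By limma, with Benjamini-Hochberg adjusted p-values below 0.05 on the whole array, 10 of the 25 tested member probe sets were higher in D20 and 5 were lower. Among all 32768 probe sets tested 36.5% passed, 19.5% as higher and 17.0% as lower. That share depends on brightness: with the dimmest 60% left out, 5564 of 21845 probe sets were higher and 5225 lower. The member counts were then still 10 and 5. Without pU6-2 array C the higher count was 6 and the lower count 5. The 5 lower ones were the FIS1 probe set and all 4 MIEF1 probe sets. The 10 higher ones were 3 of MFN1, 2 of MFN2, 2 of BNIP3 and 1 each of BNIP3L, DNM1L and MFF. No tested probe set of OPA1 or PINK1 passed. By role, fission probe sets split into 2 higher, 5 lower and 4 that did not pass, fusion probe sets into 5 higher and 3 that did not pass, and mitophagy probe sets into 3 higher and 3 that did not pass. The median log2 fold change was -0.15 for fission, 0.48 for fusion and 0.38 for mitophagy probe sets, beside 0.03 for all probe sets tested. These medians weigh each gene by its number of probe sets. MIEF1 and MFF each gave 4 of the 11 tested fission probe sets, and the fission median was the value of DNM1L 226154_at.

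The promoters of the members that moved furthest in each direction are shown. Those of FIS1, MIEF1 and MFN1 share a short motif within 63 bases of the transcription start. The 250 bases before the start were read from the RefSeq table of GRCh38.p14, which held 10 promoters of 8 of the members, on the strand of the gene. Coordinates are chr7:101245082-101245331, minus strand, for FIS1, chr22:39502040-39502289, plus strand, for MIEF1, chr3:179347459-179347708, plus strand, for MFN1 and chr10:131981924-131982173, minus strand, for BNIP3. Each sequence runs 5′ to 3′ and ends at the base before the start. Capitals mark matches, on either strand, to CCGGAAG, the core bound by ETS factors, and to ACGTG, the core of the hypoxia response element.
FIS1: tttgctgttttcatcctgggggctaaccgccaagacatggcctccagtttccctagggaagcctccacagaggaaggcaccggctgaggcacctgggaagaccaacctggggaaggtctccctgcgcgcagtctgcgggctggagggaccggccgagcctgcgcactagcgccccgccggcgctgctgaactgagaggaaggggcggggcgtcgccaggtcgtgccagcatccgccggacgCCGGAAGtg
MIEF1: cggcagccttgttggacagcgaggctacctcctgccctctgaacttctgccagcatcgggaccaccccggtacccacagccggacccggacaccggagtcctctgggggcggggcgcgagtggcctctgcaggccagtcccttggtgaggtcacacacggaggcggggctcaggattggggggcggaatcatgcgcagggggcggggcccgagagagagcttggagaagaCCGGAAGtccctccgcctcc
MFN1: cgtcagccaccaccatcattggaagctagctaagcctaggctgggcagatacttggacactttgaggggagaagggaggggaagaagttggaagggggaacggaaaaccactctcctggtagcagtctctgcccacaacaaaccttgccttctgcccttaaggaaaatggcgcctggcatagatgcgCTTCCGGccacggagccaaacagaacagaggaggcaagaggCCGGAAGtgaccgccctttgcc
BNIP3: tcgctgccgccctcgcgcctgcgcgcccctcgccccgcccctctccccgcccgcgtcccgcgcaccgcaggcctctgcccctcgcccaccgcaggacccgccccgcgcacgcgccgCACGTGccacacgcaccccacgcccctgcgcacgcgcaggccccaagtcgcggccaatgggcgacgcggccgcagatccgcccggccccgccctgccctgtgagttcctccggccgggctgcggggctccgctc
CCGGAAG stood once in FIS1, its last base 3 bases before the start, once in MIEF1 and 2 times in MFN1, and 8.52% of the 35116 promoters in the table hold it in this window. Genes that were lower and a gene that was higher in D20 thus carry the same letters. In BNIP3 the letters CACGTG, 134 to 129 bases before the start, hold ACGTG on both strands, in matches that overlap. Of all promoters, 18.5% hold that core. Neither motif was in the windows of DNM1L, MFN2 and OPA1, and 1 of the 3 MFF promoters held ACGTG. A match is a description of the letters and not of binding. Promoter sequences of BNIP3L and PINK1 were not used here.

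FIS1 had the largest difference among the members. In bulk RNA, fewer cells with a transcript and less of it per cell cannot be told apart. Its only probe set, 218034_at, had MAS5 signals of 640.1, 868.5 and 634.3 in D20 and of 2144.9, 2930.1 and 2370.2 in pU6-2. Every D20 array lay below every pU6-2 array. The mean was 714.3 ± 133.6 in D20 and 2481.7 ± 404.3 in pU6-2 (SD, n = 3 each), which is 3.43-fold lower on the scale of log2(signal + 16), a log2 fold change of -1.78 ± 0.15 (SE; limma, Benjamini-Hochberg adjusted p = 1.2e-06). Of all probe sets tested, 1.76% had a lower fold change. With a single probe set, no second measurement of FIS1 on the array stands beside it.

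MIEF1, whose product holds DNM1L on the outer membrane, was lower in D20 on each of its 4 probe sets. On the brightest, 221516_s_at, signals were 2883.1, 2723.4 and 3060.9 in D20 and 6928.3, 7286.1 and 7313.4 in pU6-2. The 2 sets of arrays were far apart, with a log2 fold change of -1.31 ± 0.08 (SE) and an interval of -1.49 to -1.13 at 95% confidence (limma, Benjamini-Hochberg adjusted p = 9.4e-08). On 204593_s_at signals were 1387.7, 1128.3 and 1294.6 in D20 and 3051.4, 2922.3 and 3005.8 in pU6-2, a log2 fold change of -1.23. On 204594_s_at they were 1122.7, 1117.7 and 1253.2 in D20 and 2357.2, 2127.8 and 2354.9 in pU6-2, a log2 fold change of -0.96. The arrays separated by clone on both of these as well. The smallest fall was that of 224319_s_at, with 716.4, 969.4 and 724.3 in D20 and 1212.9, 1319.4 and 1107.6 in pU6-2, a log2 fold change of -0.60 (adjusted p = 0.0051, limma with Benjamini-Hochberg), and this call was lost with spike-in scaling (-0.38). The fall of 221516_s_at exceeded that of 224319_s_at by 0.71 on the log2 scale, a pair picked out as the extremes of the 4 and so given without a test. Probe set names ending in _s_at or _x_at can match more than 1 transcript, and which MIEF1 transcripts each one reads was not examined.

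**Figure D1:**
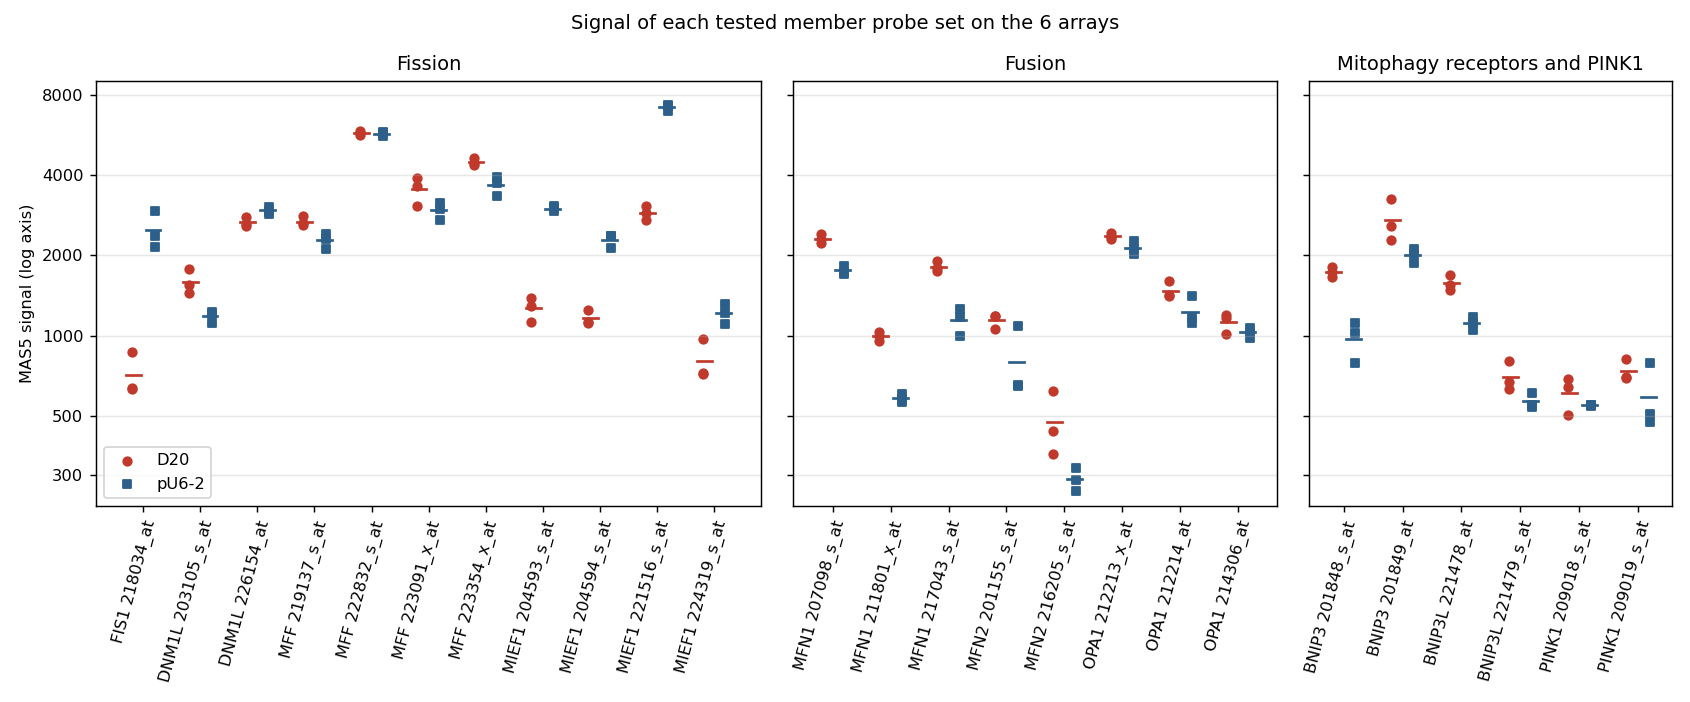
MAS5 signal (log axis) of the 25 tested member probe sets on the 3 D20 arrays (red circles) and the 3 pU6-2 arrays (blue squares), with bars at the means, by role. FIS1 and the 4 MIEF1 probe sets lie lower on every D20 array, the 3 MFN1 probe sets lie higher, and the clones overlap for PINK1.

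The other fission genes did not follow FIS1 and MIEF1. DNM1L gave probe sets of opposite sign. On 203105_s_at signals were 1443.6, 1772.6 and 1543.9 in D20 and 1209.9, 1121.6 and 1227.9 in pU6-2, higher on every D20 array, with a log2 fold change of 0.41 ± 0.11 (SE; limma, Benjamini-Hochberg adjusted p = 0.012). On the brighter 226154_at they were 2793.7, 2577.7 and 2614.6 in D20 and 2871.3, 3037.4 and 2939.2 in pU6-2. The D20 arrays were here the lower ones, but the log2 fold change of -0.15, with a 95% interval of -0.34 to 0.04, did not pass the test (limma, Benjamini-Hochberg adjusted p = 0.22). The 2 probe sets differed in fold change by 0.56 on the log2 scale, with arrays that did not overlap (two-sided exact permutation test, p = 0.1, the smallest that 3 against 3 allows). The rise of 203105_s_at did not pass with each array centred on its median or without the variance trend, and the fold change of 226154_at was 0.07 with spike-in scaling.

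MFF, the other adaptor for DNM1L, differed little between the clones. On 222832_s_at, its brightest probe set, signals were 5845.5, 5739.7 and 5640.9 in D20 and 5809.7, 5761.3 and 5584.8 in pU6-2, a log2 fold change of 0.01 with a 95% interval of -0.16 to 0.17. The arrays of the clones were mixed. Of its 3 further probe sets, with log2 fold changes of 0.23, 0.26 and 0.29, only 223354_x_at passed (limma, Benjamini-Hochberg adjusted p = 0.022), with 4377.2, 4616.8 and 4454.7 in D20 and 3340.7, 3937.8 and 3747.3 in pU6-2. That call was lost with median centring, without the variance trend, and without D20 array B (log2 fold change 0.27), pU6-2 array A (0.22) or pU6-2 array C (0.30). With spike-in scaling MFF passed on 3 probe sets, 219137_s_at also passed with quantile normalization (0.27) and 223091_x_at without D20 array C (0.36).

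Both mitofusins were higher in D20. MFN1 passed on each of its 3 probe sets. On 211801_x_at signals were 998.1, 1031.4 and 955.6 in D20 and 603.6, 564.0 and 581.9 in pU6-2, a 1.69-fold rise (log2 fold change 0.75 ± 0.12, SE; limma, Benjamini-Hochberg adjusted p = 3.4e-04). On 217043_s_at they were 1900.6, 1788.5 and 1749.3 in D20 and 1179.1, 1001.0 and 1256.5 in pU6-2, a log2 fold change of 0.66. On the brightest, 207098_s_at, they were 2308.1, 2398.4 and 2233.1 in D20 and 1706.0, 1732.8 and 1833.2 in pU6-2, a log2 fold change of 0.39 that did not pass with median centring. MFN1 was thus the only member besides MIEF1 with 3 or more probe sets that all passed. On all 3 the lowest D20 array lay above the highest pU6-2 array.

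MFN2, which besides fusion tethers mitochondria to the endoplasmic reticulum, passed on both tested probe sets with larger adjusted p-values than those of MFN1. On 201155_s_at signals were 1189.9, 1183.4 and 1062.2 in D20 and 653.5, 1086.9 and 646.3 in pU6-2, a log2 fold change of 0.56 ± 0.18 (SE; limma, Benjamini-Hochberg adjusted p = 0.027). The clones overlapped, because pU6-2 array B lay within the D20 values. On 216205_s_at they were 620.7, 361.3 and 440.1 in D20 and 261.9, 319.8 and 289.1 in pU6-2, with no overlap and a log2 fold change of 0.65 ± 0.21 (SE; limma, Benjamini-Hochberg adjusted p = 0.029). Neither passed with median centring, without the variance trend, or without D20 array A, pU6-2 array A or pU6-2 array C, where the log2 fold changes were 0.53, 0.44 and 0.43 for 201155_s_at and 0.44, 0.58 and 0.65 for 216205_s_at in the order of these arrays. The call on 201155_s_at was also lost without D20 array B (0.53), and that on 216205_s_at without D20 array C (0.68) and with quantile normalization.

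OPA1, which fuses the inner membrane, did not pass on any of its 3 tested probe sets. On 212213_x_at signals were 2304.2, 2343.0 and 2422.0 in D20 and 2113.4, 2024.2 and 2274.3 in pU6-2, with no overlap but a log2 fold change of only 0.14 and a 95% interval of -0.06 to 0.34. On 212214_at they were 1407.1, 1599.1 and 1419.3 in D20 and 1164.2, 1115.8 and 1410.7 in pU6-2, a log2 fold change of 0.26, and on 214306_at they were 1198.6, 1019.7 and 1170.0 in D20 and 1072.5, 981.6 and 1038.3 in pU6-2, one of 0.13. The clones overlapped on both of these. The upper ends of the last 2 intervals were 0.53 and 0.38. The adjusted p-values were 0.27, 0.11 and 0.44 (limma, Benjamini-Hochberg), and the first 2 of these probe sets passed with spike-in scaling.

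**Figure D2:**
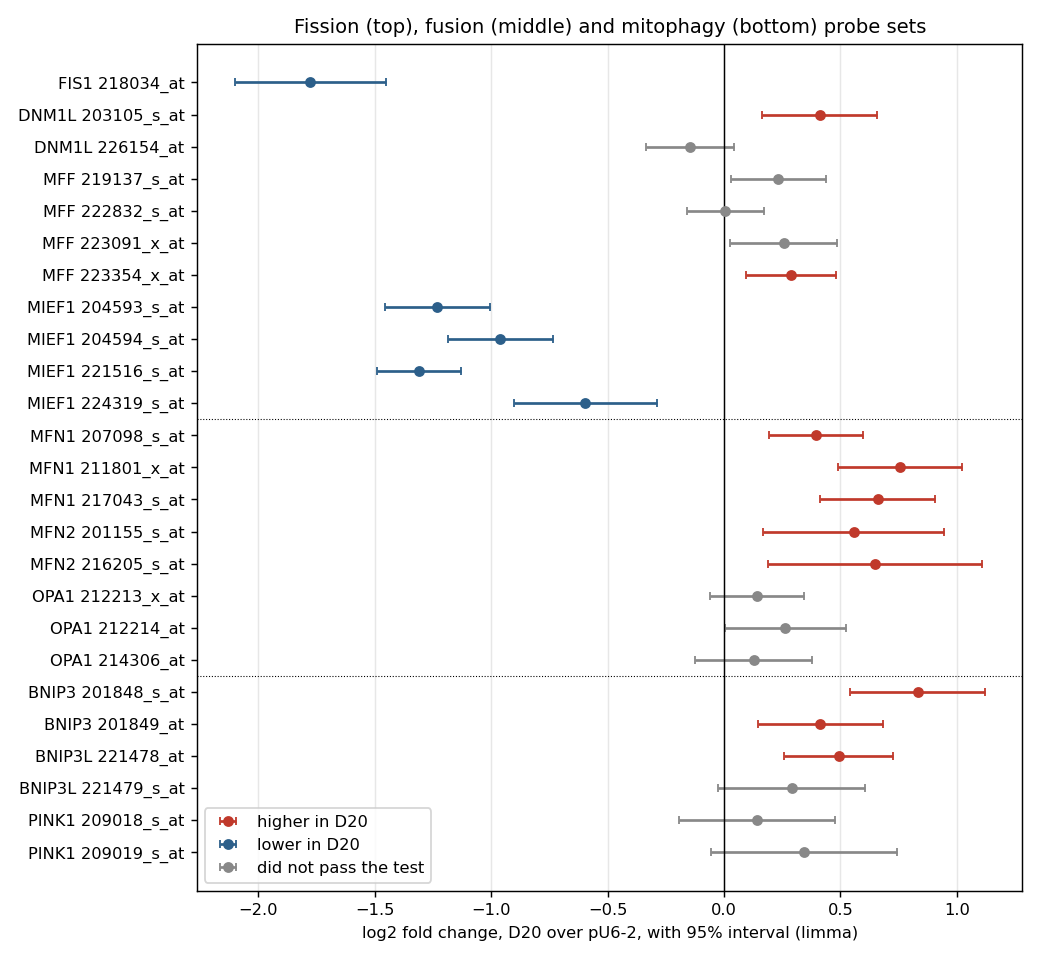
Log2 fold change of D20 over pU6-2 for the 25 tested member probe sets (points) with 95% intervals from limma (bars), by role from top to bottom; red passed as higher, blue as lower, grey did not pass. FIS1 (-1.78) and the MIEF1 probe sets (-0.60 to -1.31) are on the left, and MFN1, MFN2, BNIP3 and BNIP3L are on the right.

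Among the mitophagy genes BNIP3 and BNIP3L were higher in D20, on 3 of their 4 probe sets, and PINK1 did not pass. BNIP3 on 201848_s_at had signals of 1653.9, 1811.1 and 1730.1 in D20 and of 787.9, 1118.0 and 1020.9 in pU6-2, a 1.78-fold rise (log2 fold change 0.83 ± 0.13, SE; limma, Benjamini-Hochberg adjusted p = 3.0e-04). On 201849_at it had 2575.0, 3249.4 and 2290.6 in D20 and 2123.1, 2025.5 and 1877.2 in pU6-2, a log2 fold change of 0.41 (adjusted p = 0.019, limma with Benjamini-Hochberg). The arrays of the clones did not overlap on either, and the 2 rises differed by 0.42 on the log2 scale (two-sided exact permutation test, p = 0.1, the smallest possible). The second call was lost with median centring, without the variance trend, and without D20 array B (0.27) or pU6-2 array C (0.37).

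BNIP3L, a close relative of BNIP3 known for clearing mitochondria from maturing red cells, rose on 221478_at. Its signals there were 1549.2, 1485.9 and 1683.2 in D20 and 1112.2, 1054.6 and 1172.7 in pU6-2, a log2 fold change of 0.49 ± 0.11 (SE; limma, Benjamini-Hochberg adjusted p = 0.003). On 221479_s_at they were 802.8, 629.8 and 670.3 in D20 and 550.1, 542.4 and 611.3 in pU6-2. All D20 arrays were again above all pU6-2 arrays, with a log2 fold change of 0.29 and a 95% interval of -0.02 to 0.61, which did not pass (limma, Benjamini-Hochberg adjusted p = 0.14) except with spike-in scaling.

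PINK1 overlapped between the clones on both probe sets. On 209019_s_at signals were 701.6, 821.9 and 692.7 in D20 and 509.4, 789.8 and 476.3 in pU6-2, a log2 fold change of 0.34 with a 95% interval of -0.06 to 0.74. On 209018_s_at they were 640.8, 691.1 and 505.7 in D20 and 547.9, 549.9 and 549.3 in pU6-2, a log2 fold change of 0.14 with an interval of -0.19 to 0.48. The adjusted p-values were 0.17 and 0.52 (limma, Benjamini-Hochberg). As for MFN2 on 201155_s_at, the highest pU6-2 value on 209019_s_at was that of array B, and without that array, or with spike-in scaling, the probe set passed (log2 fold change 0.57 and 0.56).

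The 3 member probe sets left out of the test had a mean below the brightness limit, though single arrays of MFN2 1566105_at and OPA1 241027_at were above it. DNM1L 237797_at ranged from 1.8 to 13.8 in D20 and from 5.2 to 24.6 in pU6-2, MFN2 1566105_at from 17.6 to 83.7 in D20 and from 7.5 to 51.2 in pU6-2, and OPA1 241027_at from 3.4 to 26.5 in D20 and from 5.7 to 55.1 in pU6-2. The clones overlapped on all 3. Over the 25 tested probe sets, D20 lay wholly above pU6-2 on 12 and wholly below on 6, beside 25.1% and 22.1% of all probe sets tested.

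The scaling of the arrays shifted the fold changes as a whole. Over all probe sets the fold change had a median log2 value of 0.03 as deposited, 0.23 after scaling each array by its poly-A spike-in controls, -0.04 with quantile normalization and -0.09 with median centring, and the share of calls that were higher was 53.5%, 72.9%, 48.9% and 42.0% in that order. Among the members, 16 probe sets were then higher and 4 lower with spike-in scaling, and 4 higher and 5 lower with median centring. Spike-in scaling and median centring shift all probe sets of an array alike, so relative to the median of all probe sets only quantile normalization can move a member by much. On that relative scale FIS1 was at -1.80 as deposited and -1.76 with quantile normalization, MIEF1 221516_s_at at -1.34 and -1.20, MFN1 211801_x_at at 0.73 and 0.73, BNIP3 201848_s_at at 0.80 and 0.85 and BNIP3L 221478_at at 0.46 and 0.51, in the same order. Under 15 alternatives, 8 of the 15 called member probe sets kept their call in each: FIS1, MIEF1 on 221516_s_at, 204593_s_at and 204594_s_at, MFN1 on 211801_x_at and 217043_s_at, BNIP3 on 201848_s_at and BNIP3L on 221478_at.

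To show whether a member moved with its stretch of chromosome, each was set beside the 10 tested genes on either side of it in the RefSeq order. The 20 neighbours of FIS1 on chromosome 7 had a median log2 fold change of -0.08, with 1 higher and 4 lower, and those of MIEF1 on chromosome 22 one of 0.06, with 5 higher and 5 lower. The neighbours of MFN1 on chromosome 3 had a median of -0.11. None of these 3 medians came near the member's own fold change, and the cause of that was not tested. MFN2 and PINK1 both lie on chromosome 1, as does SDHB, and their neighbours had medians of 0.21 and 0.18, with 5 and 8 higher and 2 lower in each case. BNIP3 on chromosome 10 had neighbours with a median of 0.17. The neighbours of DNM1L on chromosome 12 had a median of -0.14, those of OPA1 on chromosome 3 one of -0.03 and those of BNIP3L on chromosome 8 one of -0.03. MFF on chromosome 2, at 0.01 on its brightest probe set, lay among neighbours with a median of 0.70, 12 of them higher, above the 95th percentile of such medians over all genes (0.41).

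**Figure D3:**
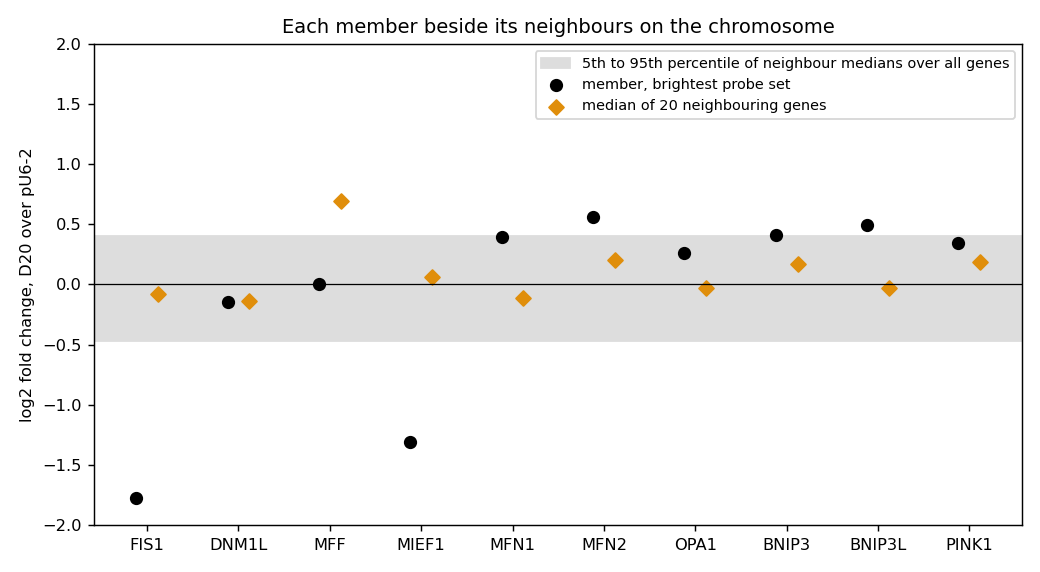
Log2 fold change of D20 over pU6-2 for the brightest probe set of each member, with those ending in _x_at set aside (black circles), and the median of its 20 neighbouring genes (orange diamonds), with the 5th to 95th percentile of such medians over all genes (grey band, -0.47 to 0.41). FIS1 and MIEF1 stand far below their neighbours, and MFF stands below a shifted stretch.

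Other genes of mitochondrial fission, fusion, shape and transport moved in both directions. Each gene was read on its brightest tested probe set. Of 35 genes, all tested, 10 rose, 6 fell and 19 did not pass, with a median log2 fold change of -0.04, and 44.3% of all 13781 genes read in this way passed, 23.6% as higher and 20.7% as lower, with a median of 0.04. With median centring the list had 6 higher and 12 lower, and with spike-in scaling 11 higher and 2 lower. The largest rise was that of TRAK2, an adaptor between mitochondria and kinesin, with signals of 2719.9, 3066.5 and 3437.5 in D20 and 831.6, 842.0 and 1008.1 in pU6-2, a log2 fold change of 1.76 ± 0.12 (SE; limma, Benjamini-Hochberg adjusted p = 1.8e-07). No D20 array came near the pU6-2 values. GDAP1, an outer membrane protein linked to fission and to a hereditary neuropathy, averaged 540.0 ± 44.4 in D20 and 153.1 ± 26.6 in pU6-2 (SD, n = 3 each), a log2 fold change of 1.73. SPIRE1, an actin nucleator with a mitochondrial form (1.01), APOO of the cristae complex MICOS (0.89) and RHOT1, the GTPase Miro1 that links mitochondria to the TRAK adaptors (0.67), rose too. Averaged over their probe sets TRAK2 was at 1.93, GDAP1 at 1.58, SPIRE1 at 0.73 and RHOT1 at 0.59. MTFR1, the mitochondrial fission regulator 1, fell by 0.86, STOML2 of the inner membrane by 0.71 and the OPA1-cleaving protease OMA1 by 0.69 on the log2 scale. CHCHD3 of MICOS (-0.37) and the rhomboid protease PARL (-0.32) completed the 5 largest falls. OMA1, CHCHD3 and PARL did not pass when spike-ins set the scale or the variance trend was left out, OMA1 not without pU6-2 array C (-0.59), and PARL not in any fit without 1 array other than that without D20 array B (-0.44 to -0.10 over all alternatives). CHCHD3 averaged over its probe sets was at -0.16 and did not pass.

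Of 36 other mitophagy genes 33 were named and tested. Of these 6 rose, 10 fell and 17 did not pass, beside 23.6% higher and 20.7% lower among all genes tested. The median log2 fold change of the list was -0.14. With spike-in scaling 11 rose and 6 fell, and with median centring 3 rose and 12 fell. Among the falls, SQSTM1, the autophagy adaptor p62, had signals of 3635.7, 4251.4 and 3498.5 in D20 and 8301.2, 9951.6 and 9112.9 in pU6-2, a log2 fold change of -1.26 ± 0.10 (SE; limma, Benjamini-Hochberg adjusted p = 6.0e-07). The clones were well apart on this probe set. SQSTM1 had 5 tested probe sets, of which 1 other was called lower and the rest did not pass. Averaged over them it was at -0.84. ATG13, a subunit of the ULK1 kinase complex (-1.12), the segregase VCP (-0.96), NIPSNAP1, a matrix protein that recruits autophagy adaptors (-0.96), and USP30, the outer membrane deubiquitinase that opposes parkin (-0.76), followed. Averaged over their probe sets they were at -1.24, -0.73, -0.79 and -0.92 in that order. NIPSNAP2, the paralog of NIPSNAP1, rose, with 8128.6 in D20 on average and 4066.1 in pU6-2, a log2 fold change of 0.99, and so did the adaptor optineurin, OPTN (0.96), and the autophagosome protein GABARAPL2 (0.60). FUNDC1, a further outer membrane mitophagy receptor (0.40), and WIPI2 (0.39) rose by less. FUNDC1 did not pass with median centring, without the variance trend, or without D20 array B (0.34) or C (0.34) or pU6-2 array A (0.37) or B (0.31), nor did WIPI2 with median centring, without the variance trend, or without D20 array A (0.16) or pU6-2 array A (0.29) or C (0.37). PPTC7, a phosphatase known to restrain BNIP3 and BNIP3L, was picked out after its values were seen: it averaged 1414.4 in D20 and 2020.0 in pU6-2, a log2 fold change of -0.51 (adjusted p = 0.0013, limma with Benjamini-Hochberg), and it did not pass with spike-in scaling (-0.29) or averaged over its probe sets (-0.28).

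**Figure D4:**
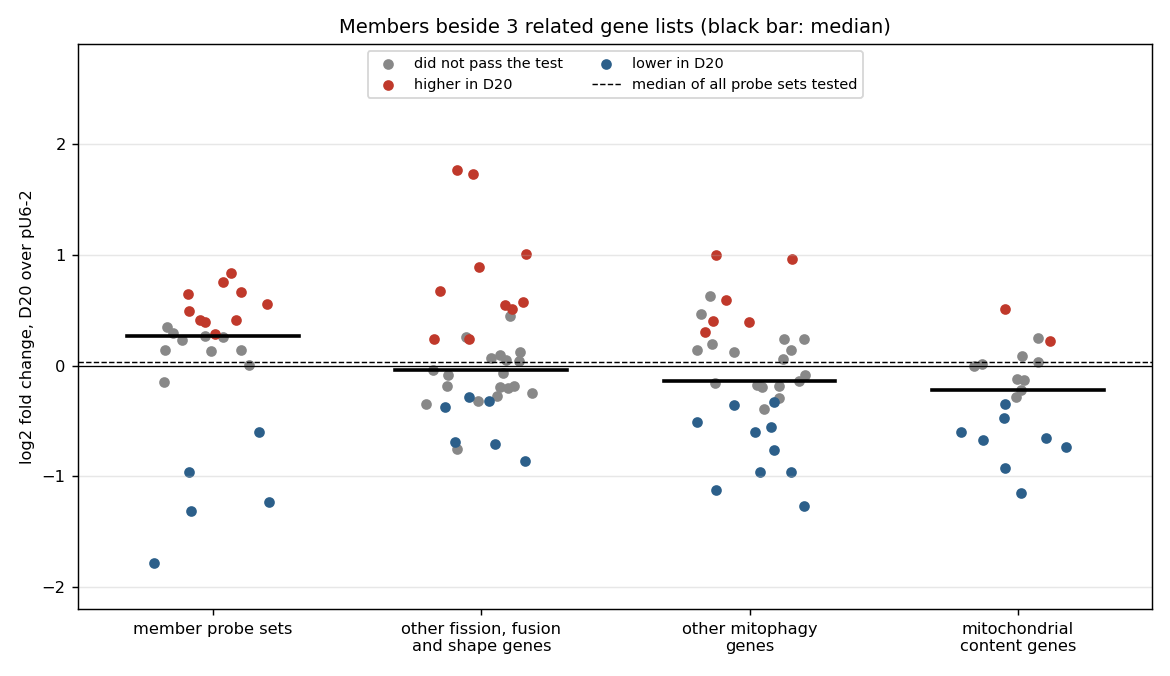
Log2 fold change of D20 over pU6-2 for the 25 member probe sets and for the genes of 3 related lists (1 point per probe set or gene, horizontal position within a column arbitrary), with list medians (black bars) and the median of all probe sets tested (dashed line). Members have falls down to -1.78, the list of other shape genes has rises up to 1.76, and the genes of import, metabolism and biogenesis (labelled mitochondrial content genes) have a median of -0.22.

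Nuclear genes of mitochondrial import, metabolism and biogenesis were read as a further list, whose transcripts do not measure how many mitochondria a cell holds. Of 21 genes 19 were tested. Of these 2 rose, 8 fell and 9 did not pass, beside 23.6% higher and 20.7% lower among all genes tested. The median log2 fold change of the list was -0.22. The falls were led by TOMM22 of the import pore (-1.15, or -0.54 averaged over its probe sets), ESRRA (-0.93), POLRMT (-0.74, or -0.42 in that average), TOMM70 (-0.67) and citrate synthase, CS (-0.65). POLG (0.51), the mitochondrial DNA polymerase, and the porin VDAC2 (0.22) rose. Neither passed with median centring. POLG did not pass without pU6-2 array B (0.43) or C (0.47) or averaged over its probe sets (0.21), and VDAC2 passed in 1 of the 6 fits without 1 array, that without D20 array A. The count of 2 was 0 without pU6-2 array B or C and 1 without D20 array B or C. The part of these changes in the members' fold changes was not tested.

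As to the cells, most hepatocyte markers were bright in both clones. APOA1 was dim on the probe set read, with 52.5 in D20 and 187.3 in pU6-2 on average. Names ending in _x_at were taken last, so this need not be its brightest probe set. Of its 3 tested probe sets, the 2 others were called lower too. Of 12 tested hepatocyte markers, 8 were lower in D20, with log2 fold changes of -5.62 to -0.35, 1 was higher (FGB, 1.71) and 3 did not pass. The oncofetal protein AFP averaged 403.5 in D20 and 20569.5 in pU6-2, and TTR 1429.6 in D20 and 11505.2 in pU6-2. Albumin, ALB, averaged 43934.7 in D20 and 43677.7 in pU6-2 on the probe set read and did not pass there. Of its 4 tested probe sets, 1 other was called higher and 1 lower. The summed hepatocyte marker signals were 158286 to 185246 in D20 and 307785 to 316172 in pU6-2. Of 7 tested fibroblast markers 1 rose and 2 fell (LUM and PDGFRA). LUM was dim, with 8.3 in D20 and 160.4 in pU6-2 on average. PDGFRA had 2 tested probe sets, and the one not read here was called higher. The riser was COL1A1, with 3780.0 in D20 and 1.2 in pU6-2 on average on the probe set read. Of its 4 tested probe sets, 1 other was called higher and the rest did not pass. COL1A1 alone turned the sum. With it the sum was 4270 to 4987 in D20 and 1183 to 1436 in pU6-2. Without it the sum was 757 to 893 in D20 and 1181 to 1435 in pU6-2. Of the endothelial markers only PECAM1 was bright enough to test. It passed as higher on 1 of its 2 tested probe sets, with 213.1 in D20 and 62.5 in pU6-2 on average. On the other it did not pass. All 4 summed to 244 to 324 in D20 and 102 to 172 in pU6-2, and the 3 others, VWF, CDH5 and KDR, to 43 to 86 in D20 and 36 to 130 in pU6-2. Blood cell markers summed to 143 to 244 in D20 and 251 to 375 in pU6-2, with PTPRC too dim to test and neither of the 2 tested passing. Biliary markers summed to 20835 to 23556 in D20 and 19519 to 20370 in pU6-2, with 2 higher and 1 lower of 4. KRT7 did not pass on the probe set read, but it had 2 tested probe sets, and the other was called higher. Array medians were 86.2 to 92.4 in D20 and 77.7 to 84.1 in pU6-2, Pearson's r across probe sets was 0.943 to 0.957 within a clone and 0.908 to 0.919 between clones, and the ratio of 3′ to 5′ signal of the GAPDH control was 1.11 to 1.25 in D20 and 1.08 to 1.15 in pU6-2, and that of the ACTB control 1.40 to 1.68 in D20 and 1.42 to 1.90 in pU6-2. The part of these differences in the members' values was not tested.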

How the data were processed

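RNA of Hep3B clones D20 and pU6-2 was measured on 6 HG-U133 Plus 2.0 arrays, 3 per clone, grouped by sample titles. The deposited values are intensity values on a linear scale, 1 MAS5 signal per probe set and array per the submitters' processing notes; no scaling target or detection call was used, since the sources used here give none. Precision is limited by having 6 arrays. The platform annotation gave 1 gene to 41091 probe sets, several to 1801 and none here to 11721, and symbols were updated by Entrez identifier through the RefSeq gene table of GRCh38.p14.

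Signals were transformed to log2(signal + 16), which understates fold changes of dim probe sets. After removal of 62 control probe sets, the dimmest 40% by mean log2 signal, below a signal of 43.2, were dropped, which left 32768. The clones were compared in R 4.3.3 with limma 3.58.1 (lmFit and eBayes, fitted with a trend of the variance on brightness; two-sided tests, no covariate), Benjamini-Hochberg adjustment over all probe sets and a threshold of 0.05.

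A listed gene was read on its brightest tested probe set, taking names not ending in _x_at first. The text names every member probe set and, of each of 3 gene lists, up to 5 called genes with the largest changes in each direction; PPTC7 was added after its values were seen. Members and lists were chosen with earlier results of these data known. Alternatives were pseudocounts of 1 and 64, no filter and a 60% filter, quantile normalization, median centring, scaling on 23 poly-A spike-in probe sets with a signal above 100, no variance trend, the replicate letter as a block, leaving out each array, and averaging over the probe sets of each gene.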

Additional observations from a re-analysis of the deposited data

How the results depend on the processing

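The count of lower member probe sets, 5, was 4 with spike-in scaling, where MIEF1 224319_s_at did not pass, and 5 in the 14 other alternatives. The count of higher ones, 10, was 16 with spike-in scaling, 4 with median centring, 5 without the variance trend, 12 with the replicate block, where MFF 219137_s_at and 223091_x_at passed too, and 6 to 11 when 1 array was left out, the lowest without pU6-2 array C. No called member probe set changed direction. Of those not called, DNM1L 226154_at was at 0.0699 with spike-in scaling against -0.15, and MFF 222832_s_at, at 0.01, was at -0.11 with median centring and between -0.011 and 0.0186 with 1 array left out, below 0 without D20 array A and without pU6-2 array C. The letters A, B and C do not pair the arrays by any label, and deviations of same-lettered arrays from their clone means correlated by -0.02, 0.05 and 0.01, with only the B arrays correlating best with their own letter, so that the replicate block is given here only: it left 6658 of all probe sets higher and 5899 lower, against 6397 and 5555. All probe sets called lower were 3353 with spike-in scaling. The other shape genes had 10 higher and 6 lower, against 2 lower with spike-in scaling, 6 higher and 12 lower with median centring, 5 higher and 2 lower without the variance trend, and 7 to 8 higher and 4 to 8 lower with 1 array left out. The other mitophagy genes had 6 higher and 10 lower, against 11 and 6 with spike-in scaling, 3 higher with median centring and without the variance trend, and 11 higher on averaging the probe sets of each gene. The 2 content genes that rose were 0 with median centring, 1 without a filter, without the variance trend and on averaging the probe sets, and 0 to 2 with 1 array left out. The causes were not tested. With 3 arrays per clone, an exact test of single values cannot go below a p of 0.1.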
